A study of Caenorhabditis elegans with 2 samples.

Results

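UNC-86 peaks were examined at 10 genes of the tubulin and microtubule system of Caenorhabditis elegans, out of 19973 protein-coding genes annotated on the nuclear chromosomes. The genes were listed by name. They are 3 genes known from the touch receptor neurons (mec-7, mec-12 and mec-17), 6 tubulin genes set against them as widely used ones (tba-1, tba-2, tba-4, tbb-1, tbb-2 and tbb-4) and ptl-1, which encodes a protein related to the vertebrate tau family and was counted apart. A peak belonged to a gene if its summit lay between 1500 bp upstream of the annotated 5' end and the 3' end. UNC-86 carrying a C-terminal GFP tag was precipitated with an antibody to GFP from whole hermaphrodites of strain OP476, which bears the unc-119(tm4063) mutation on chromosome III and the transgene wgIs476. Embryos freed by bleaching had hatched without food to bring the worms to the same stage, and chromatin was made 6 hours later, still in the first larval stage (L1), in 2 biological replicates of this 1 group. No other genotype, treatment or time was compared, and the labelled whole organism could not be checked against cell type markers, since peaks do not measure expression. In chromatin from whole worms, binding in few cells and weak binding in many cells cannot be told apart.

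Touch receptor neurons sense gentle touch along the body and are filled with unusually wide microtubules. MEC-12, an alpha-tubulin, and MEC-7, a beta-tubulin, build these microtubules, and MEC-17 is the alpha-tubulin acetyltransferase that modifies MEC-12. UNC-86, a POU homeodomain protein, and MEC-3, a LIM homeodomain protein, specify these neurons and are known to bind DNA together at sites that contain AATGCAT. The other tubulins serve cell division and the cytoskeleton of many cells, apart from TBB-4, a beta-tubulin known from ciliated sensory neurons.

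The following sequences are shown because some hold AATGCAT and others do not. They come from the WBcel235 genome (the ce11 build), run 5' to 3' along the strand of the gene, and are in lower case with AATGCAT on either strand (also written ATGCATT) and GAGAGA on either strand (also TCTCTC) in capitals. For mec-7 the 300 bases before the 5' end are given (chrX:7776690-7776989, minus strand). The others are the 151 bases centred on a pooled summit, for mec-17 (chrIV:7987166-7987316, minus strand), for mec-12 at its 5' end (chrIII:3139248-3139398, minus strand) and in its second intron (chrIII:3136046-3136196, minus strand), for tbb-1 (chrIII:10742617-10742767, minus strand), tbb-2 (chrIII:4018192-4018342, minus strand), tbb-4 (chrX:9437054-9437204, minus strand) and ptl-1 (chrIII:764543-764693, plus strand).
mec-7 upstream: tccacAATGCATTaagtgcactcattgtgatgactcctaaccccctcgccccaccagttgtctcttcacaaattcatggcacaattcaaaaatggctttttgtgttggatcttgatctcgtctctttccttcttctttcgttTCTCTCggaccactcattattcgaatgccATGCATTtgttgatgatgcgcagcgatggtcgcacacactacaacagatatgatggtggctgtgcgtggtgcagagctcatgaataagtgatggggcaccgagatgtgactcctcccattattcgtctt
mec-17 summit: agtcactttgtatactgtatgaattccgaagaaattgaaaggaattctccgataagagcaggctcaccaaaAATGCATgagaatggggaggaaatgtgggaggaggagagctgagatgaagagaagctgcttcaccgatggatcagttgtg
mec-12 5' end summit: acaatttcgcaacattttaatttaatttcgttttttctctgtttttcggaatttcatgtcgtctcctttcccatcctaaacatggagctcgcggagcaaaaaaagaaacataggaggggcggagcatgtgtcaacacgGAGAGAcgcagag
mec-12 intron summit: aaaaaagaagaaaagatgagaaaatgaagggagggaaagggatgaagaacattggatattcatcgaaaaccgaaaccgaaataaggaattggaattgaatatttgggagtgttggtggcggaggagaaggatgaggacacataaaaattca
tbb-1 summit: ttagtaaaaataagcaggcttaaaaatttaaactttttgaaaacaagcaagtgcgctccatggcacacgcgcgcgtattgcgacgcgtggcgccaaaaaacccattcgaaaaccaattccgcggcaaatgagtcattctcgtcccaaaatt
tbb-2 summit: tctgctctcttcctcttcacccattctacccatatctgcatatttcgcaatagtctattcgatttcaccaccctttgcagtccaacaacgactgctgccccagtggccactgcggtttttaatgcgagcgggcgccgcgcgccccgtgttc
tbb-4 summit: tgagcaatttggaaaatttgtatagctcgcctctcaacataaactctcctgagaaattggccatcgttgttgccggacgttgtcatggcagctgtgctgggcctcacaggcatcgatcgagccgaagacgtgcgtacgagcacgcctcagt
ptl-1 summit: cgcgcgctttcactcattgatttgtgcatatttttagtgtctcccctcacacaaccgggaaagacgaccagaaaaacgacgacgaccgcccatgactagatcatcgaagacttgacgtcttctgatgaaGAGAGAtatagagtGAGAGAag
The mec-7 and mec-17 sequences hold AATGCAT, the first of them at more than 1 place, and the other printed windows do not.

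Optimal peaks, those that passed the authors' irreproducible discovery rate (IDR) procedure, were present at 7 of the 10 genes. The touch neuron genes with one were mec-7 and mec-12 (2 of 3). Among the widely used tubulins tba-1, tba-2, tbb-1 and tbb-2 had one (4 of 6), and ptl-1 had one. Of all protein-coding genes 14.4% had an optimal peak under the same rule. The 3 genes without an optimal peak were mec-17, tba-4 and tbb-4. With 1 group of 2 replicates, no test was made between the gene groups, since genes of a list chosen by name are not replicates, and the counts of 2 of 3 and 4 of 6 are the same share. That equality depends on counting tbb-4, known from ciliated sensory neurons, among the 6. The share of all genes with an optimal peak was highest among the longest windows, and was 10.7%, 9.48%, 13.3% and 24.2% in 4 classes of equal size from the shortest windows to the longest. The window of mec-12 (9161 bp) and that of ptl-1 (7708 bp) were in the longest class, and those of the other 8 genes ran from 3006 to 4882 bp, beside a median of 3527 bp over all genes.

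In the relaxed pooled list, which includes background, all 10 genes had at least 1 peak, against 52.7% of all protein-coding genes. All 10 also had a peak in the relaxed list of each replicate, against 67.3% of all genes in replicate 1 and 58.6% in replicate 2. The 10 windows held 33 pooled peaks, 0.729 per kb of window, while the windows of all protein-coding genes held 0.218 per kb. By group the density was 0.691 per kb at the touch neuron genes, 0.792 per kb at the widely used tubulins and 0.649 per kb at ptl-1. Of the 33 peaks, 8 were optimal and 25 were not, and those 25 had pooled signals from 19.3 to 60.8. Over the genome, 2987 of the 20768 pooled peaks were optimal. Of the 8 optimal summits, 7 lay upstream of the 5' end and 1, at mec-12, lay inside the gene.

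**Figure D1:**
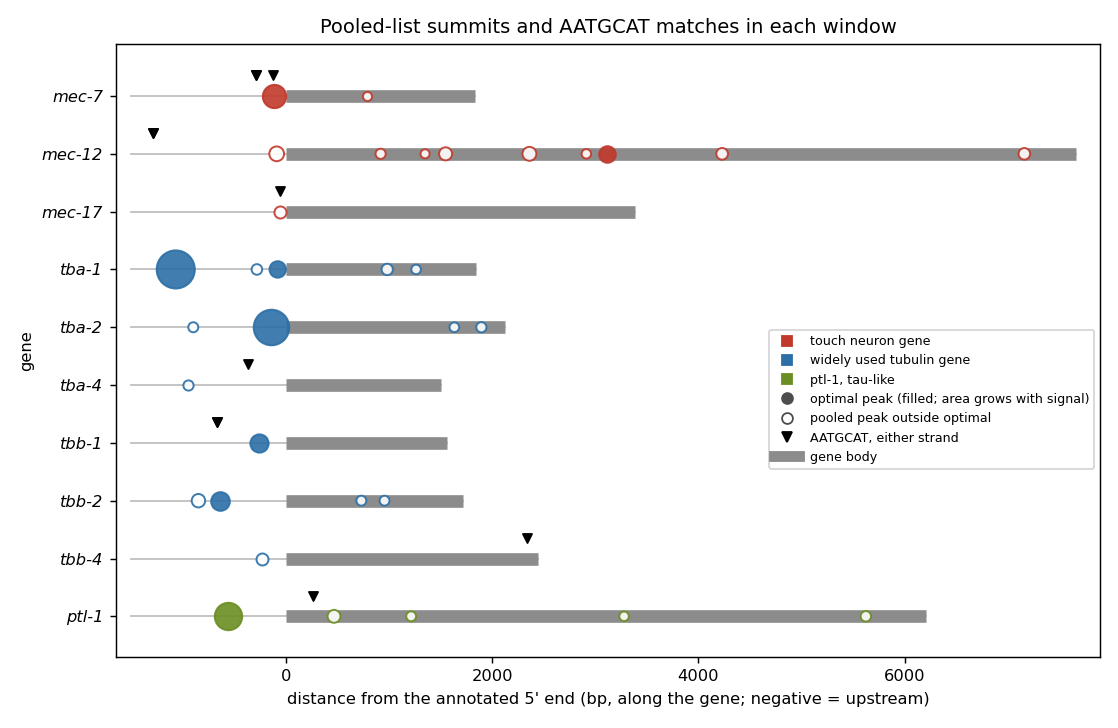
Pooled-list summits (circles; area grows with the authors' signal value, filled if optimal) and AATGCAT matches (triangles) along the 10 gene windows, in bp from the annotated 5' end. AATGCAT stands over the summits next to the 5' ends of mec-7 and mec-17, while mec-12 has a row of 9 summits with the optimal one 3113 bp inside the gene.

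mec-7 (WBGene00003171, chromosome X, 7774856 to 7776689, minus strand), the touch neuron beta-tubulin, had its optimal peak 119 bp upstream of the 5' end, at 7776610 to 7777005. The signal value there was 66.1 in replicate 1, 91.0 in replicate 2 and 161 in the pooled list. It ranked 1208 of 29587 peaks in replicate 1, 1084 of 25172 in replicate 2 and 1089 of 20768 in the pooled list. Both replicates thus put the peak among their 2987 strongest, a list as long as the optimal one, with summits 15 and 6 bp from the pooled summit. The summit was intergenic, and the nearest 5' end of another protein-coding gene, ZK154.1, was 2769 bp away, so no protein-coding neighbour had the peak in its own window. Inside the gene a weak pooled peak (19.4) lay 787 bp from the 5' end in coding exon sequence, with 12.6 in replicate 2 and no matching summit in replicate 1.

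mec-12 (WBGene00003175, chromosome III, 3131574 to 3139234, minus strand), the touch neuron alpha-tubulin, had a different layout, with 9 pooled peaks spread along the gene. Its optimal peak lay in intron 2 of a gene with 5 exons, 3113 bp from the 5' end (3135923 to 3136318), and its signal was 24.8 in replicate 1, 54.4 in replicate 2 and 78.5 in the pooled list. Replicate 2 ranked it 2064, within its 2987 strongest, whereas replicate 1 ranked it 3826, outside them. The peak at the 5' end, with its summit 89 bp upstream, had 21.7 in replicate 1, 37.8 in replicate 2 and 60.8 in the pooled list, below the lowest optimal signal of 66.4. In replicate 2 this peak ranked 2990, just past the 2987 strongest. Further summits in the gene were at 2362 bp (53.2 pooled) in intron 2 and 1549 bp (46.2 pooled) in exon 2. A further optimal peak stood just outside the window, 1566 bp upstream (3140602 to 3140997), with 52.7 in replicate 1, 37.6 in replicate 2 and 94.8 in the pooled list. Counted within 3000 bp upstream, it was thus the strongest pooled peak of those counted, and the replicates ordered it and the intron 2 peak oppositely. Its summit was nearer to the 5' end of the microRNA gene cel-mir-76 than to that of mec-12.

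mec-17 (WBGene00003178, chromosome IV, 7983802 to 7987183, minus strand), the acetyltransferase gene, had 1 pooled peak and it was weak. The summit lay 58 bp upstream of the 5' end (7987043 to 7987438). Its signal was 20.4 in replicate 1, 19.8 in replicate 2 and 38.9 in the pooled list, which is under the 66.4 of the lowest optimal peak. The ranks were 5061 of 29587 in replicate 1, 6360 of 25172 in replicate 2 and 5345 of 20768 in the pooled list. Both replicates placed the peak, with summits 30 and 0 bp from the pooled one, and neither had it among its 2987 strongest. The summit was also 1444 bp upstream of the divergent gene col-115, a collagen gene, and so fell within the window of that gene too. Of all protein-coding genes, 21.0% had a pooled signal in their window at least as high.

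**Figure D2:**
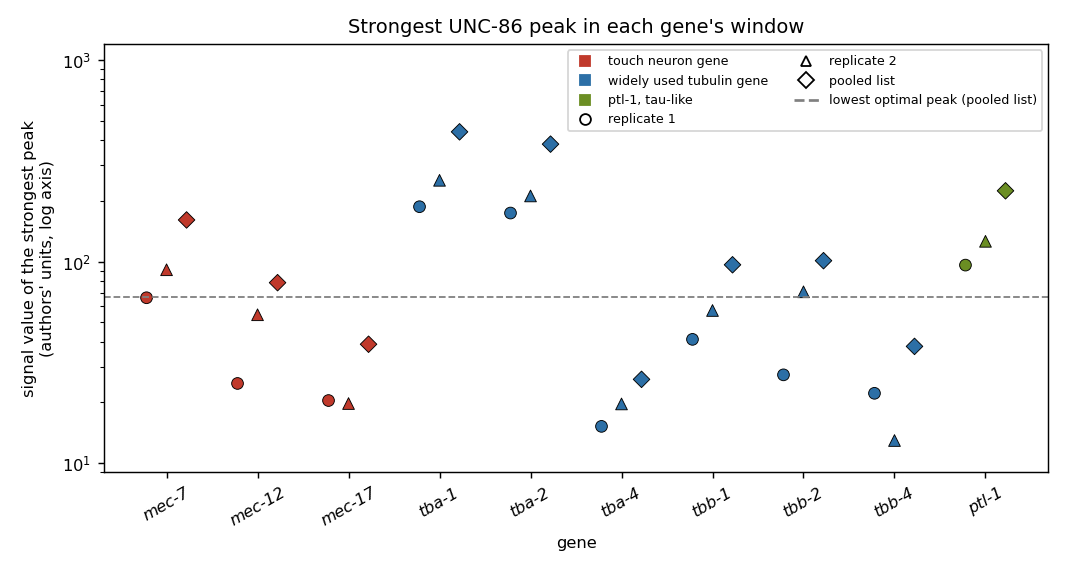
Signal value (authors' units, log axis) of the strongest peak in each gene's window in replicate 1 (circles), replicate 2 (triangles) and the pooled list (diamonds); the dashed line, the lowest optimal peak, applies to the diamonds. The touch neuron genes range from 38.9 to 161 in the pooled list, and the widely used tubulins range from tba-4 at 26.0 to tba-1 at 440. The tba-1 value is that of the peak nearest to cox-5B.

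The strongest peaks of the 10 genes were at the alpha-tubulin genes tba-1 and tba-2, both on chromosome I. tba-1 (WBGene00006528, 9785781 to 9787624, minus strand) had 2 optimal peaks in its window, and 1.66% of all protein-coding genes had 2 or more. tba-1 and tba-2 each had an optimal signal above 300, as did 2.57% of all protein-coding genes. The stronger one, 1068 bp upstream (9788567 to 9788821), had 187 in replicate 1, 253 in replicate 2 and 440 in the pooled list, where it ranked 199. That summit lay only 33 bp from the 5' end of the divergent gene cox-5B, which encodes a cytochrome c oxidase subunit. The weaker one, 79 bp upstream of tba-1 (9787505 to 9787900), was 1022 bp from cox-5B and had 27.2 in replicate 1, 50.1 in replicate 2 and 77.0 in the pooled list. The summit of replicate 1 lay 84 bp from the pooled one and that of replicate 2 lay 7 bp from it. The weaker peak was among the 2987 strongest of replicate 2 (rank 2233) and not of replicate 1 (rank 3420). At its own 5' end tba-1 was therefore not close to tba-2 in signal. Its pooled value there was close to that of the mec-12 peak in intron 2 (78.5), while the mec-12 peak at the 5' end had 60.8.

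tba-2 (WBGene00006529, 12964674 to 12966795, minus strand) had its optimal peak 142 bp upstream, at 12966823 to 12967048. The signal was 174 in replicate 1, 212 in replicate 2 and 382 in the pooled list, with the summit at the same base in all 3 lists. It ranked 257 in replicate 1, 266 in replicate 2 and 262 in the pooled list. The nearest 5' end of another protein-coding gene was that of pbs-2, a proteasome subunit gene, 1343 bp away. This peak was thus closest to tba-2 itself, and it exceeded the mec-7 peak in both replicates. As at mec-12, a further optimal peak stood outside the window, 1854 bp upstream. It had 39.8 in replicate 1, 37.1 in replicate 2 and 72.7 in the pooled list. Its summit was nearer to the 5' end of pbs-2 than to that of tba-2.

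The beta-tubulin genes tbb-1 and tbb-2, both on chromosome III, had optimal peaks of middle rank. tbb-1 (WBGene00006536, 10740868 to 10742432, minus strand) had a summit 260 bp upstream (10742494 to 10742889), with 41.1 in replicate 1, 57.2 in replicate 2 and 96.4 in the pooled list. The peak was in the strongest 2987 of both replicates, but its summit lay nearer, at 118 bp, to the 5' end of the divergent gene rib-2, an enzyme gene of heparan sulfate synthesis. tbb-2 (WBGene00006537, 4015910 to 4017627, minus strand) had a summit 640 bp upstream (4018069 to 4018464), with 27.4 in replicate 1, 70.8 in replicate 2 and 101 in the pooled list. This summit lay in an exon of the non-coding RNA gene C36E8.10, 150 bp from its 5' end. It ranked 3387 in replicate 1, outside the strongest 2987, and 1494 in replicate 2. A weaker pooled peak 848 bp upstream of tbb-2 (49.3) had 14.9 in replicate 1 and 39.4 in replicate 2. Outside the window, 2380 bp upstream of tbb-2, stood a further optimal peak, stronger in the pooled list than the one inside. It had 56.6 in replicate 1, 66.4 in replicate 2 and 126 in the pooled list. Its summit was nearer to the 5' end of snpc-3.4, itself 1770 bp from the summit inside the window, than to that of tbb-2.

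tba-4 and tbb-4 had no optimal peak. tba-4 (WBGene00006530, chromosome II, 10918706 to 10920211, plus strand), an alpha-tubulin gene, had 1 pooled peak, 947 bp upstream and ranked 10591 of 20768, with 19.7 in replicate 2 and no summit within 100 bp in replicate 1. The summit lay 485 bp from the 5' end of F44F4.10. tbb-4 (WBGene00006538, chromosome X, 9434452 to 9436893, minus strand) had a pooled peak of 37.9 at 236 bp upstream, with 22.2 in replicate 1 and 12.9 in replicate 2. A signal at least as high was found in the windows of 32.6% of all protein-coding genes for tba-4 and of 21.3% for tbb-4.

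ptl-1 (WBGene00004212, chromosome III, 765184 to 771391, plus strand), whose product binds microtubules and is known to be abundant in touch neurons, had the strongest peak after tba-1 and tba-2. Its summit lay 566 bp upstream (764420 to 764815), with 96.0 in replicate 1, 126 in replicate 2 and 224 in the pooled list. It ranked 719 in replicate 1, 661 in replicate 2 and 679 in the pooled list, above mec-7 in all 3. The nearest 5' end of another protein-coding gene, nlp-52, was 2842 bp away. A pooled peak 467 bp inside the gene (45.0), in an intron, was uneven, with 8.98 in replicate 1 and 31.8 in replicate 2.

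The 10 genes were set among all protein-coding genes by the strongest pooled signal in the window. The peak with that signal need not lie nearest to the gene. For tba-1 it was the peak 33 bp from the 5' end of cox-5B, not the one next to tba-1 (77.0). For tbb-1 and tbb-2 its summit lay nearer to the 5' ends of rib-2 and C36E8.10. At or above the signal of tba-1 were 1.16% of all genes, and for tba-2 the share was 1.58%. For ptl-1 it was 4.14% and for mec-7 6.32%, while for tbb-2, tbb-1 and mec-12 it lay between 10.4% and 12.7%. For mec-17, tbb-4 and tba-4 it lay between 21.0% and 32.6%. The touch neuron genes were thus spread over the order, with a median strongest pooled signal of 78.5, against 98.7 for the widely used tubulins and 30.7 over all protein-coding genes with a pooled peak.

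**Figure D3:**
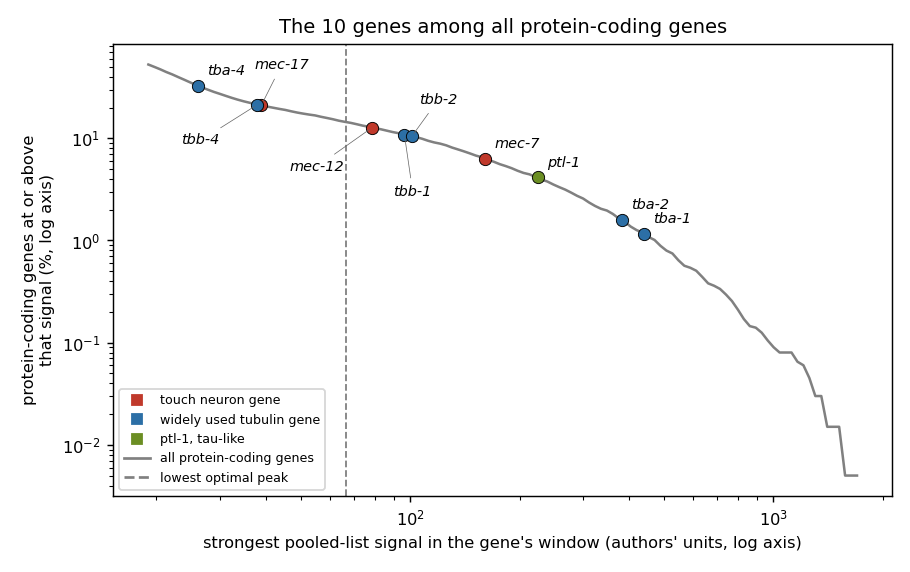
Share of all protein-coding genes (%, log axis) whose strongest pooled signal reaches the value on the horizontal axis (authors' units, log axis), with the 10 genes marked on the curve and the lowest optimal signal dashed. mec-7 sits at 6.32%, mec-12 at 12.7% and mec-17 at 21.0%, against 1.16% for tba-1 and 1.58% for tba-2. The tba-1 value is that of the peak nearest to cox-5B.

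Of 9 pairs of neighbours in this order, 6 kept it in both replicates, again by the strongest peak of the window. tba-1, tba-2, ptl-1 and mec-7 stood in the same order in the pooled list and in each replicate. tbb-2 was above tbb-1 in replicate 2 (70.8 against 57.2) and below it in replicate 1 (27.4 against 41.1). mec-17 was above tbb-4 in replicate 2 (19.8 against 12.9) and below it in replicate 1 (20.4 against 22.2). tbb-4 was above tba-4 in replicate 1 (22.2 against 15.2) and below it in replicate 2 (12.9 against 19.7). The tba-4 values belong to different peaks, 829 bp inside the gene in replicate 1 and 947 bp upstream in replicate 2. The neighbours in these 3 pairs did not differ beyond the spread between replicates.

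The replicates placed 5 of the 8 optimal peaks among their own 2987 strongest, and 3 reached that list in replicate 2 only. The 5 were those of mec-7, tba-2, tbb-1 and ptl-1 and the stronger peak of tba-1. The 3 were the intron peak of mec-12, the peak next to tba-1 and the peak of tbb-2. Of all 2987 optimal peaks, 2514 were overlapped by peaks among the 2987 strongest of both replicates. By that overlap rule the number was again 5 of the 8 here. Over the 2919 optimal peaks with a summit of each replicate within 100 bp, the signal of replicate 2 was 1.26 times that of replicate 1 in the median, and 90% of peaks lay between 0.792 and 2.12. The ratio was 1.38 at mec-7, 1.22 at tba-2, 1.39 at tbb-1, 1.31 at ptl-1 and 1.35 at the stronger tba-1 peak, all near that median. At mec-12 it was 2.19 and at tbb-2 2.58, both past the upper end of that range, and at the weaker tba-1 peak it was 1.84. The −log10 q values, the authors' measure of confidence per peak, were 1.51 for mec-12, 1.86 for the weaker tba-1 peak and 1.88 for tbb-2 in replicate 1, against 3.51 for mec-7. In replicate 2 all 4 had the same value. By the strongest 2987 of replicate 1 alone, 1 of 3 touch neuron genes and 3 of 6 widely used tubulins had a peak, against 14.1% of all protein-coding genes. By those of replicate 2 alone the counts were 2 of 3 and 4 of 6, against 14.5%.

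**Figure D4:**
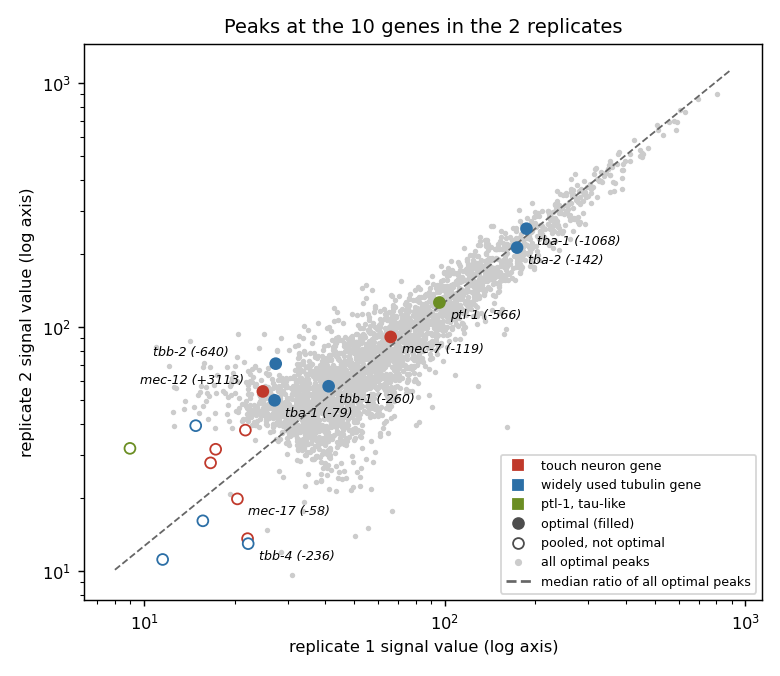
Signal values of peaks at the 10 genes in replicate 1 and replicate 2 (authors' units, log axes; filled if optimal, bp from the 5' end in brackets), over all optimal peaks (grey) and their median ratio (dashed). The peaks of mec-7, ptl-1, tba-2 and tbb-1 lie along the line, while tbb-2 and the mec-12 intron peak stand above it at 2.58 and 2.19 times.

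AATGCAT lay at the 5' summits of mec-7 and mec-17 and at no other pooled summit of the 10 genes. Within 75 bp of the summit, on either strand, 2 of the 12 pooled peaks at touch neuron genes held it, while 0 of 16 at the widely used tubulins and 0 of 5 at ptl-1 did. At mec-7 the middle of the match lay 7 bp from the pooled summit, 22 bp from that of replicate 1 and 13 bp from that of replicate 2. At mec-17 the distances were 1, 29 and 1 bp. AATGCAT was found at 91 of the 2987 optimal summits (3.05%), at 2.48% of pooled summits outside the optimal list and in 1.93% of windows of that length placed 500 bp from optimal summits. Within 10 bp of the summit, a limit set after these distances were seen, it was found at 76 of 20768 pooled summits (0.366%), among them those of mec-7 and mec-17. At the optimal summits alone the share was much the same, 11 of 2987 (0.368%). The weak mec-17 peak thus held the match as close to its summit as the stronger mec-7 peak did.

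Across the promoters, from 250 bp before to 50 bp after the 5' end, mec-7 and mec-17 had AATGCAT and the other 8 genes did not, beside 4.52% of all protein-coding promoters. In mec-7 a second place, 292 bp upstream, reads the same on both strands and so counts as a match on each, 173 bp from the pooled summit. In the whole windows AATGCAT was common, present in 46.7% of those of all protein-coding genes. mec-12 had it on both strands about 1289 bp upstream, 277 bp from the summit of the optimal peak just outside its window. tba-4, tbb-1, tbb-4 and ptl-1 had it as well, with the nearest pooled summit 577, 407, 2574 and 201 bp away. tba-1, tba-2 and tbb-2 had none in their windows. These sequences are matches of letters, not measured binding sites, and AATGCAT was chosen for its known link to touch neuron genes.

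The other sequences searched were counted in the same way. GAGAGA was found at 36.3% of optimal summits and in 7.50% of windows of that length placed 500 bp from them. In promoters, which are longer windows of 300 bp, the share was 21.8%. GAGAGA lay at 3 of the 8 optimal peaks here, at mec-7, tba-2 and ptl-1. ATGCAT, which lies inside AATGCAT, had no further match at the pooled summits. The POU octamer ATGCAAAT (1.24% of optimal summits) and the E box CACGTG (4.55%) were at none of the 33 summits, and the homeodomain core TAATTA (6.88% of pooled summits outside the optimal list) was at 2 such summits, at mec-12 and tba-2. Summit windows held 45.2% G and C bases on average over all optimal peaks. At the optimal peaks here the share ran from 37.7% at the mec-12 intron to 56.3% at the stronger tba-1 peak, with 47.0% at mec-7.

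The remaining genes of the tubulin system were counted from 2 lists. Of 8 further tubulin genes, 2 had one (25%), beside 14.4% of all protein-coding genes. They were tba-7, an alpha-tubulin gene (50.3 in replicate 1, 67.4 in replicate 2 and 118 pooled, 298 bp inside the gene in an intron), and tbg-1, the gamma-tubulin gene (38.5, 69.9 and 109). ben-1, the beta-tubulin gene known for its role in benzimidazole sensitivity, reached 60.4 in the pooled list, under the lowest optimal signal, and tba-9 and tbb-6 had no pooled peak. Of 30 other microtubule genes with a match in the annotation, 8 had an optimal peak (26.7%).

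The strongest of these was at spas-1, the gene of the severing enzyme spastin, with 153 in replicate 1, 166 in replicate 2 and 326 in the pooled list. dlk-1, a kinase gene of axon regeneration, followed with 105, 146 and 242, at a summit in its own intron. ttll-4, a tubulin polyglutamylase gene, had 95.2, 92.3 and 190. unc-33, which encodes a CRMP protein of axon growth, had 4 optimal peaks, the strongest with 64.2, 96.1 and 159. Pooled signals were 142 at ptrn-1 (patronin, a minus-end binder), 130 at dnc-1 (dynactin), 111 at unc-44 (ankyrin) and 99.0 at lis-1 (a dynein regulator). atat-2, the second alpha-tubulin acetyltransferase gene, had no optimal peak and a pooled signal of 41.0, close to the 38.9 of mec-17.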

How the data were processed

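The data were ChIP-seq peak lists of UNC-86 from 2 biological replicates. Per the file titles, each replicate and the pool of both had a list of peaks with background, the input of the IDR step that gave the optimal list. The labels name a control, which was not analysed here. The sources used here do not say how reads were aligned, how peaks were called or where the IDR limit lay. The signal per peak is the authors' own, its scale is not stated, and it was used to describe and rank peaks within a list. The −log10 q values are those deposited. The 4 lists on ce11 were used, and of the ce10 lists only the number of optimal peaks. The 2987 optimal peaks were the strongest of the 20768 pooled peaks, and no peak ended beyond a chromosome of WBcel235. Read depth is unknown.

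Genes came from Ensembl release 115. A replicate peak was matched to a pooled one within 100 bp of its summit, a limit set after the data were seen. Of the other microtubule genes listed, 1 symbol (hdac-6) had no match. Sequences came from the RefSeq WBcel235 genome, and those on chromosome I are not shown. The rule for named genes took all 10 listed genes, neighbours that share a peak, and the other listed genes with an optimal peak; ben-1, tba-9, tbb-6 and atat-2 were added after their values were seen. Members, lists and sequences were chosen with earlier results of these data known, and no test was made. Alternatives changed the window, the overlap, the assignment of peaks, the threshold and the replicates. Counting and search steps were tested on simulated data. Computations used Python 3.11.15, numpy 2.4.6, pandas 2.3.3 and matplotlib 3.10.9.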

Additional observations from a re-analysis of the deposited data

How the results depend on the processing

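The count of 7 genes with an optimal peak stayed between 5 and 7 in all alternatives but 1. With optimal peaks above the median signal only, 4 of the 10 genes had one, 1 of 3 touch neuron genes (mec-7) and 2 of 6 widely used tubulins (tba-1 and tba-2), against 8.39% of all protein-coding genes. mec-12 lost its optimal peak, leaving 1 touch neuron gene, with a window ending 500 bp past the 5' end (12.3% of all genes) and with peaks overlapped by the strongest of both replicates (12.6%). With each peak given to the nearest 5' end of any annotated gene, 2 widely used tubulins had one, against 8.12% of all genes, since tbb-1 and tbb-2 lost theirs. Protein-coding 5' ends alone, an alternative added after seeing the data, gave 3, against 10%. Leaving out 1 replicate gave 5 to 7 of the 10 genes, 1 to 2 touch neuron genes, 3 to 4 widely used tubulins and 14.1% to 14.5% of all genes; the low values are those without replicate 2. The share of all genes was 12.8% with a window from 1000 bp upstream, 17.9% from 3000 bp, 15.5% with any overlap and 16.6% with as many pooled peaks as the ce10 optimal list (3637), where the 10 genes gave the same counts. The count of 1 optimal peak with AATGCAT did not change in any alternative. No paired analysis was possible because there was 1 group. The settings that shorten the list of peaks or the window count fewer peaks by construction, and no cause beyond that was tested. Without read counts, the depth behind weak peaks such as that of mec-17 is unknown.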
